A study of Arabidopsis thaliana with 9 samples.

Results

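Auxin is made in Arabidopsis mainly in a short route in which aminotransferases of the TAA family turn tryptophan into indole-3-pyruvate and flavin monooxygenases of the YUCCA (YUC) family turn that into indole-3-acetic acid (IAA), the main natural auxin. Described here are 7 genes of this route, listed by locus: the aminotransferase genes TAA1 (AT1G70560) and TAR2 (AT4G24670), and the monooxygenase genes YUC2 (AT4G13260), YUC3 (AT1G04610), YUC5 (AT5G43890), YUC6 (AT5G25620) and YUC8 (AT4G28720). They are 7 of the 38194 genes in the files, and all 7 passed the filter on low counts that left 20021 genes for testing. The RNA came from whole seedlings aged 4 days and grown at 23 °C, with 3 libraries (A, B and C) in each of 3 groups, 9 in all. OE UPAT plants carry the human long noncoding RNA UPAT behind the constitutive viral 35S promoter, OE APOLO plants carry the Arabidopsis long noncoding RNA APOLO behind the same promoter, and WT is the untransformed Columbia accession (Col-0), the background of both lines. Each overexpressor is a single transformed line, so that an effect of the transcript and one of that line cannot be told apart.

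YUC genes are active in different organs, and their enzymes act in one and the same step, which sets the pace of the route. YUC8 is known for its rise in warmth and shade, when the transcription factors PIF4, PIF5 and PIF7 act on it and the hypocotyl elongates. YUC2 was of interest in the study because APOLO was proposed to act at this locus together with the proteins LHP1 and VIM1. The comparison below asks whether the RNA of these synthesis genes differed in seedlings kept at a moderate temperature, and how large a difference the counts could have shown.

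Libraries of OE UPAT were the smallest. The gene counts summed to between 7883571 and 9184836 in OE UPAT, to between 11887311 and 14078290 in the libraries labelled OE APOLO and to between 12990391 and 14048069 in WT. Levels are given in CPM, counts scaled to one common library size after TMM adjustment, and a floor of 3 counts stood for 0.207 to 0.393 CPM. APOLO itself (AT2G34655) had 1, 3 and 3 counts in OE APOLO A, B and C and 2 counts in each WT library. Pooled, these are 7 against 6 counts, a depth-corrected ratio of 1.25 with an exact 95% interval of 0.36 to 4.51 (two-sided exact binomial test on the pooled reads, p = 0.785). The counts of this row thus leave room for a ratio of at most 4.51, and they do not show the overexpression that the label states. Whether reads of the transgene are counted in this row was not tested, and the group is called "the libraries labelled OE APOLO". UPAT has no row among the Arabidopsis genes, and its label was not checked here. Markers of roots and of green shoots were present in every group, with none of 12 and of 7 at 0 counts. Summed over the 12 root markers, the level was 2210 to 2430 CPM in OE UPAT, 2280 to 2900 CPM in the libraries labelled OE APOLO and 1760 to 2040 CPM in WT, most of it from PYK10, a protein of root endoplasmic reticulum bodies. Without PYK10 the sums were 105 to 111 CPM in OE UPAT, 111 to 144 CPM in the libraries labelled OE APOLO and 125 to 126 CPM in WT. Of 11 root markers tested, 4 had a log2 fold change above 0 in each line against WT, with medians of -0.13 in OE UPAT and -0.01 in the libraries labelled OE APOLO. Of these 11, edgeR called 1 in OE UPAT, where 19.8% of all genes tested were called, and 0 in the libraries labelled OE APOLO, where 6.54% were. The called marker was CASP5, a gene of the root endodermis, lower in OE UPAT (-1.19, FDR 2.33e-06). DESeq2 also called 1 root marker higher in each line. The 7 green shoot markers summed to 53800 to 64100 CPM in OE UPAT, 49600 to 57000 CPM in the libraries labelled OE APOLO and 46200 to 56700 CPM in WT. Seed storage transcripts were highest in OE APOLO A and B and lowest in OE APOLO C. The 7 markers summed to 23.3, 10.9 and 0.518 CPM in OE APOLO A, B and C. They summed to 2.81, 2.07 and 1.48 CPM in WT A, B and C, and to 1.31 to 3.81 CPM in OE UPAT. Of the 2 that were tested, CRA1 and CRU3, neither was called in the libraries labelled OE APOLO against WT (log2 2.49 and 3.36, FDR 0.0209 and 0.0256 in edgeR). Both had an unadjusted p under 0.05 in edgeR, 0 were called by DESeq2, and CRU2 had 0 counts in WT. In RNA from whole seedlings, fewer cells of a type and less RNA per cell cannot be told apart.

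Printed below are the regions just upstream of YUC2 and of the warmth-responsive YUC8, and a coding part of YUC2 that holds copies of a GAAGAA box, a word the study relates to recognition by APOLO. They are printed 5′ to 3′ on the strand of the gene, from RefSeq's TAIR10.1. Capitals mark the GAAGAA box (GAAGAA or TTCTTC) and the E-box that PIF proteins bind (CACATG or CATGTG), both searched on both strands. The upstream stretches end at the base before the annotated start of the gene and lie at chr4:7724071-7724370 on the minus strand for YUC2 and at chr4:14192269-14192568 on the plus strand for YUC8. The coding stretch lies at chr4:7723023-7723204 on the minus strand, in the exon of YUC2 nearest its 5′ end.
YUC2 upstream: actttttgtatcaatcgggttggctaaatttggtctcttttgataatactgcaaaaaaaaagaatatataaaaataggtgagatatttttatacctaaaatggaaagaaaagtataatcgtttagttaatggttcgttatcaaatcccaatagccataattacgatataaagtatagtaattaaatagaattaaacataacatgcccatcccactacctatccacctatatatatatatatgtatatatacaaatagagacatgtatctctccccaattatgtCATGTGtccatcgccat
YUC8 upstream: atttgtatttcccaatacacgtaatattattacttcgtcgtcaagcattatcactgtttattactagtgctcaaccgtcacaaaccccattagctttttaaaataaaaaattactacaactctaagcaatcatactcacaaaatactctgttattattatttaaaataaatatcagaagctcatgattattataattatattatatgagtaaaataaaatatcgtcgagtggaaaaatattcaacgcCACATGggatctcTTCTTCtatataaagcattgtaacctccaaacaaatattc
YUC2 coding: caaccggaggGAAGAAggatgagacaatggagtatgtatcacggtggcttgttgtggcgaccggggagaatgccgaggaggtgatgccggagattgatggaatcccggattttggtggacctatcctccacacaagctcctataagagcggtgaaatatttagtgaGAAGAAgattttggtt
In YUC2 the E-box lies 17 bases before the start, and in YUC8 it lies 53 bases before, with a GAAGAA box 40 bases before. The E-box is held by 2 of the 7 members and by 13.1% of 27443 protein-coding genes in the same 300 bases. The perfect G-box CACGTG, another word that PIF proteins bind, was found in none of the 7 members and in 7.09% of genes. A GAAGAA box was held upstream by 3 members (TAR2, YUC5 and YUC8) and by 35.2% of genes. Over the whole gene, introns included, YUC2 held 7 GAAGAA boxes, 6 of them in its exon nearest the 5′ end and 2 of those in the coding stretch above. That is 2.71 per kb, where the median of 27444 protein-coding genes was 2.44 per kb. YUC3 had 3.53 per kb, TAA1 2.86, TAR2 2.1, YUC6 1.57 and YUC5 1.11, and YUC8 had none. These matches are a description of the letters and not of binding.

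TAA1 was by far the most abundant of the 7 transcripts. Scaled by exonic length, it averaged 15.2 CPM per kb over the 9 libraries, between 11.9 and 20.7, and was 6.26 times the next gene. That level was above those of 68.5% of the 19886 tested genes with an annotated length. TAR2, YUC8 and YUC6 followed at 2.44, 2.42 and 2.15 CPM per kb, and their order changed from library to library: TAR2 was above YUC8 in 6 of 9 libraries, and YUC8 above YUC6 in 6 of 9. YUC6 in turn was above YUC3 (1.45 CPM per kb) in 8 of 9 libraries. YUC3 was above YUC2 in every one of the 9 libraries, although their ranges over all libraries overlapped. YUC2 and YUC5 were the lowest, at 0.846 and 0.732 CPM per kb, and overlapped, with YUC2 above in 6 of 9 libraries. All 6 genes other than TAA1 lay in the lower part of the transcriptome, above no more than 21.8% of the tested genes (TAR2), and YUC5 lay above 5.57%. None of the 7 overlaps another annotated gene on either strand, and all their counts were whole numbers, so that no read of theirs was divided between features. Together the 5 YUC genes summed to 6.47 to 8.53 CPM per kb in OE UPAT, 8.52 to 8.61 in the libraries labelled OE APOLO and 6.59 to 7.31 in WT. The sum of TAA1 and TAR2 was 14.8 to 19.9, 16.4 to 23.1 and 13.8 to 17.4 CPM per kb in the same order of groups. These sums are descriptions of the chosen genes and carry no test.

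**Figure D1:**
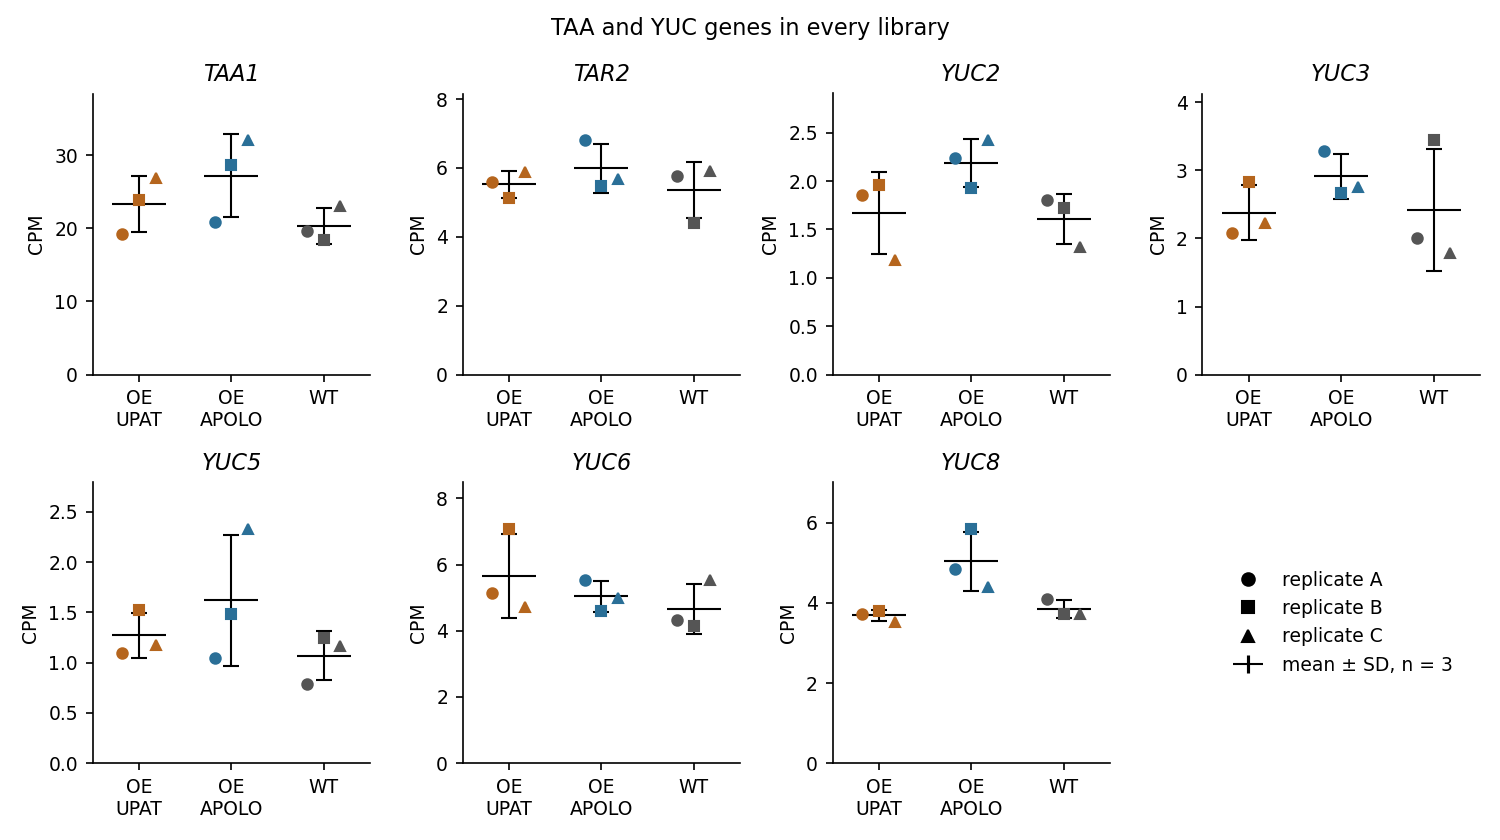
CPM of the 7 TAA and YUC genes in each library (vertical axes in CPM, starting at 0), for OE UPAT, OE APOLO and WT from left to right. Points are libraries, with a marker shape for each replicate, and bars are means ± SD (n = 3). The groups overlap in most panels; in those of YUC2 and YUC8 all 3 OE APOLO libraries lie above all 3 of WT.

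TAA1, a gene of the first step, from tryptophan to indole-3-pyruvate, had 175, 219 and 205 counts in OE UPAT A, B and C, 279, 388 and 371 in OE APOLO A, B and C, and 272, 267 and 296 in WT A, B and C. In CPM these were 19.2, 23.9 and 26.8 in OE UPAT, 20.9, 28.7 and 32 in the libraries labelled OE APOLO, and 19.6, 18.4 and 23 in WT. OE APOLO B and C were thus above every WT library, while OE APOLO A lay among them. The log2 fold change was 0.42 ± 0.14 (SE) in the libraries labelled OE APOLO against WT, with an adjusted p-value (FDR) of 0.0712 from the quasi-likelihood test of edgeR, and it did not pass the threshold of 0.01. Its 95% interval ran from 1.08-fold to 1.66-fold. Leaving out OE APOLO A, the lowest of its group, gave 0.58 with an FDR of 0.00259, which passes the threshold, and over all 17 alternatives the FDR ran from 0.00259 to 0.266. OE APOLO A was also the library with the most seed storage RNA, 23.3 CPM against 10.9 in OE APOLO B and 0.518 in OE APOLO C, and the part of this in the level of TAA1 was not tested. No other member was called without OE APOLO A. OE UPAT gave 0.19 ± 0.15 against WT (FDR 0.368), and against the libraries labelled OE APOLO it gave -0.23 ± 0.15 (FDR 0.283). The spread of TAA1 between replicates was wide for its depth. The smallest log2 fold change that would have been called in the libraries labelled OE APOLO against WT, explained below, was 0.62 for TAA1. Its upper quartile was 0.50 over genes with a mean of 160 to 320 counts per library, and 0.40 over those with 320 to 640. Counting noise made up 21.4% of the variance of the TAA1 estimate in that comparison, against 62.5% to 92.4% for the other members. The other members had fewer counts, which by itself raises this share.

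TAR2, a close relative of TAA1 with the same enzymatic role, had 51, 47 and 45 counts in OE UPAT (5.59, 5.12 and 5.89 CPM), 91, 74 and 66 in the libraries labelled OE APOLO (6.8, 5.48 and 5.69 CPM), and 80, 64 and 76 in WT (5.76, 4.41 and 5.91 CPM). All 3 groups overlapped. The log2 fold change was 0.17 ± 0.16 in the libraries labelled OE APOLO against WT (FDR 0.563, 95% interval -0.17 to 0.50), 0.05 ± 0.17 in OE UPAT against WT (FDR 0.864, 0.805-fold to 1.33-fold) and -0.12 ± 0.17 in OE UPAT against the libraries labelled OE APOLO (FDR 0.636), all in edgeR's quasi-likelihood test.

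YUC2, whose locus the study centres on, was counted 17, 18 and 9 times in OE UPAT A, B and C, 30, 26 and 28 times in OE APOLO A, B and C, and 25, 25 and 17 times in WT A, B and C. Scaled for depth this was 1.86, 1.96 and 1.18 CPM in OE UPAT, 2.24, 1.93 and 2.42 CPM in the libraries labelled OE APOLO, and 1.8, 1.72 and 1.32 CPM in WT. All 3 libraries labelled OE APOLO lay above all 3 of WT, as was the case for 15.9% of all genes tested, and OE UPAT overlapped both other groups. With so few reads, the difference of the libraries labelled OE APOLO from WT was 1.35-fold with a 95% interval of 0.938-fold to 1.94-fold (log2 0.43 ± 0.25, FDR 0.288 in edgeR's quasi-likelihood test), and counting noise made up 92.4% of the variance of this estimate. OE UPAT against WT gave 1.04-fold, with an interval of 0.694-fold to 1.56-fold (FDR 0.896). OE UPAT against the libraries labelled OE APOLO gave 0.773-fold, with an interval of 0.522-fold to 1.15-fold (FDR 0.321). A change of YUC2 in the libraries labelled OE APOLO would have been called only from an estimate of 2.07-fold upward or 0.482-fold downward. Both values lie outside the interval of the measured difference. They come from the same standard error as that interval, so that this adds nothing to the lack of a call.

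YUC8, the member best known as a gene of the response to warmth and shade, had 3.73, 3.81 and 3.53 CPM in OE UPAT A, B and C (34, 35 and 27 counts). In OE APOLO A, B and C it had 4.86, 5.85 and 4.4 CPM (65, 79 and 51 counts), and in WT A, B and C 4.1, 3.72 and 3.73 CPM (57, 54 and 48 counts). Every library labelled OE APOLO was above every library of WT, as was the case for 15.9% of all genes tested. Each was also above every library of OE UPAT, as was the case for 21.9%, whereas OE UPAT overlapped WT. The log2 fold change of the libraries labelled OE APOLO against WT was 0.39 ± 0.16 (1.31-fold, interval 1.03-fold to 1.67-fold), with an FDR of 0.135, and that of OE UPAT against the libraries labelled OE APOLO was -0.45 ± 0.18 (0.732-fold, interval 0.565-fold to 0.949-fold), with an FDR of 0.0668. Neither passed the threshold of edgeR's quasi-likelihood test. In 17 alternatives each, these FDR values ran from 0.104 to 0.421 and from 0.0461 to 0.258. OE UPAT and WT gave 0.96-fold, with an interval of 0.736-fold to 1.25-fold (FDR 0.841). An exact permutation test of the CPM values, 3 libraries against 3, gave p = 0.1 for YUC8 in the libraries labelled OE APOLO against WT. This is the smallest p the design allows, and it only restates that the libraries did not overlap. The same test gave the same p for YUC8 in OE UPAT against the libraries labelled OE APOLO, and for YUC2 in the latter against WT.

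YUC6, known from gain-of-function plants with raised auxin, was the only member whose mean was higher in OE UPAT than in the libraries labelled OE APOLO. It had 5.15, 7.08 and 4.71 CPM in OE UPAT (47, 65 and 36 counts), 5.53, 4.59 and 5 CPM in the libraries labelled OE APOLO (74, 62 and 58 counts), and 4.32, 4.13 and 5.52 CPM in WT (60, 60 and 71 counts). OE UPAT B was the highest of the 9 libraries, and the groups overlapped throughout. OE UPAT against WT gave 1.22-fold, with an interval of 0.926-fold to 1.62-fold (FDR 0.265), and the libraries labelled OE APOLO against WT gave 1.09-fold (FDR 0.74; 95% interval of the log2 fold change -0.27 to 0.51). Against the libraries labelled OE APOLO, OE UPAT gave a log2 fold change of 0.17 ± 0.19 (FDR 0.534 in edgeR's quasi-likelihood test), and without OE UPAT B it was -0.02.

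YUC3 and YUC5, both active in roots, were low and variable. YUC3 had 2.08, 2.83 and 2.22 CPM in OE UPAT (19, 26 and 17 counts), 3.29, 2.67 and 2.76 CPM in the libraries labelled OE APOLO (44, 36 and 32 counts), and 2.01, 3.44 and 1.79 CPM in WT (28, 50 and 23 counts). WT B stood above all other libraries, and WT A and C were among the lowest 3. The libraries labelled OE APOLO gave 1.19-fold against WT, with an interval of 0.825-fold to 1.73-fold (log2 0.26, FDR 0.573), and 0.61 on the log2 scale without WT B (FDR 0.145, the lowest over the 17 alternatives, which reached 0.886). OE UPAT gave 0.981-fold against WT, from 0.653-fold to 1.47-fold (log2 -0.03, FDR 0.952), and 0.32 on the log2 scale without WT B (FDR 0.409). Its difference from the libraries labelled OE APOLO was -0.28 ± 0.27 (FDR 0.468 in edgeR's quasi-likelihood test). YUC5, the lowest member, had 1.1, 1.52 and 1.18 CPM in OE UPAT (10, 14 and 9 counts), 1.05, 1.48 and 2.33 CPM in the libraries labelled OE APOLO (14, 20 and 27 counts), and 0.791, 1.24 and 1.17 CPM in WT (11, 18 and 15 counts). The highest value of YUC5 was that of OE APOLO C, and the groups overlapped. The libraries labelled OE APOLO gave 1.49-fold against WT with the widest interval of the 7, 0.922-fold to 2.42-fold (log2 0.58, FDR 0.281), and 0.25 on the log2 scale without OE APOLO C. OE UPAT gave 1.19-fold against WT, 0.693-fold to 2.04-fold (FDR 0.639), and 0.797-fold against the libraries labelled OE APOLO (FDR 0.518).

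None of the 7 members was called in any of the 3 comparisons at an FDR under 0.01. In the libraries labelled OE APOLO against WT, where 6.54% of the 20021 genes tested were called (4.27% higher and 2.27% lower), edgeR's quasi-likelihood test called 0 of 7 members and DESeq2 also 0. At an unadjusted p under 0.05, edgeR counted 2 members (TAA1 and YUC8) and DESeq2 1, where edgeR counted 26.4% of all genes tested. In OE UPAT against WT, 19.8% of genes were called (10.1% higher and 9.72% lower) and 0 of 7 members by either tool, and 0 members had an unadjusted p under 0.05 in either tool, where edgeR counted 41.5% of genes tested. In OE UPAT against the libraries labelled OE APOLO, 17.8% of genes were called (8.49% higher and 9.36% lower) and 0 of 7 members by either tool. At an unadjusted p under 0.05 there was 1 member in edgeR (YUC8) and 0 in DESeq2, where edgeR counted 40.1% of genes tested.

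By sign alone, all 7 members had a fold change above 1 in the libraries labelled OE APOLO against WT, where 49.9% of all genes did. Their median log2 fold change was 0.39, against -0.0008 for all genes tested. In OE UPAT against WT it was 0.06, with 5 of 7 members above 0, against -0.01 and 49.2% for all genes. In OE UPAT against the libraries labelled OE APOLO it was -0.28, with 1 of 7 above 0 (YUC6), against -0.01 and 48.8% for all genes. The 7 signs in the libraries labelled OE APOLO were the same in all 17 alternatives in which a member had a value, but the members share the same libraries, and no test of the 7 together was made. The members were also chosen with earlier results of these data known. Of the rarer family genes, in an edgeR fit with no filter on low counts, YUC4 and YUC1 went the other way in that comparison (log2 -1.81 and -0.86). YUC7 and YUC9 did not (0.85 and 0.56), and none of these was called. All 3 libraries labelled OE APOLO lay above all 3 of WT for 2 of 7 members (YUC2 and YUC8), where 15.9% of genes tested did and 31% lay apart in either direction. All 3 OE UPAT libraries lay above or below all 3 of WT for 0 of 7 members, where 46.7% of genes tested did, 23.6% of all genes being below. OE UPAT lay wholly below the libraries labelled OE APOLO for 1 of 7 (YUC8), where 21.9% of genes tested did and 41.7% lay apart in either direction. Both comparisons with WT use the same 3 WT libraries and are not independent of each other.

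**Figure D2:**
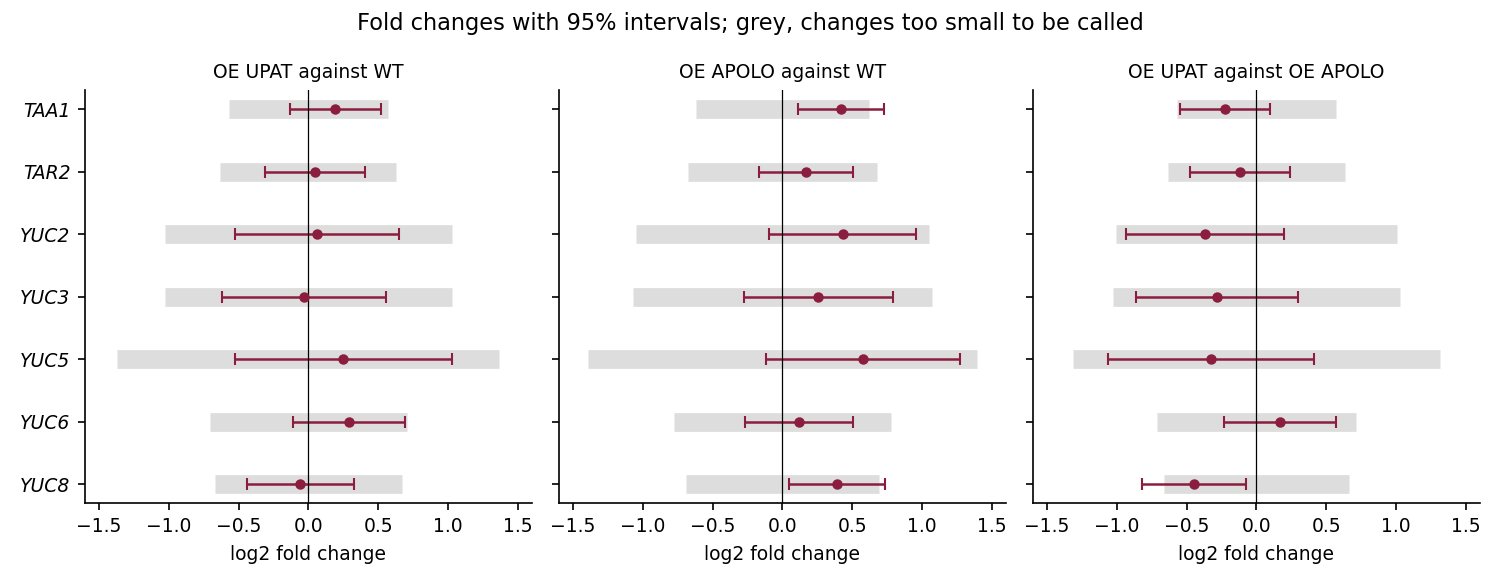
Log2 fold change of each TAA and YUC gene (points) with its 95% interval (lines) in OE UPAT against WT, OE APOLO against WT and OE UPAT against OE APOLO. The grey bars span the estimates too small to be called at an FDR under 0.01; every point lies inside its bar.

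How much these genes could have changed unseen depends on their depth. The smallest estimate that would have been called was computed from each gene's standard error and the largest unadjusted p called in the comparison, which was 0.000653 for the libraries labelled OE APOLO against WT, 0.00198 for OE UPAT against WT and 0.00178 for OE UPAT against the libraries labelled OE APOLO. For OE UPAT against WT it was 1.49-fold for TAA1, 1.55-fold for TAR2, 1.59-fold for YUC8, 1.63-fold for YUC6, 2.04-fold for both YUC2 and YUC3, and 2.58-fold for YUC5. For the libraries labelled OE APOLO against WT it was 1.54-fold for TAA1, 1.6-fold for TAR2, 1.62-fold for YUC8, 1.71-fold for YUC6, 2.07-fold for YUC2, 2.1-fold for YUC3 and 2.63-fold for YUC5. In OE UPAT against the libraries labelled OE APOLO it ran from 1.48-fold for TAA1 to 2.49-fold for YUC5. Changes larger than these would have been called more often than missed, and a power of 0.8 needed 1.63-fold to 3.22-fold in OE UPAT against WT and 1.68-fold to 3.2-fold in the libraries labelled OE APOLO against WT. A decrease of YUC2 in OE UPAT had to reach 0.49 of the WT level, and one of YUC5 0.388, before it would have been called. On the other side, the 95% intervals give the changes that the fit leaves room for. In OE UPAT against WT they leave room for a decrease of YUC2 to 0.694, of YUC8 to 0.736 and of TAA1 to 0.912 of the WT level. In the libraries labelled OE APOLO, they leave room for an increase of YUC2 up to 1.94-fold and of YUC8 up to 1.67-fold. For YUC2 and YUC8 in OE UPAT against WT, the standard errors (0.2753 and 0.18) were below those of counting alone (0.2799 and 0.1865). The same held for both against the libraries labelled OE APOLO. Their intervals and smallest detectable changes in these comparisons thus include no variation between replicates and may be too narrow. Calls were fewer among low genes in general: of all genes with a mean of 20 to 40 counts per library, 3.36% were called in the libraries labelled OE APOLO against WT, and the median size of the log2 fold change was 1.47 in those called. Of genes with a mean of 1280 counts or more 14.8% were called, with a median size of 0.46.

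**Figure D3:**
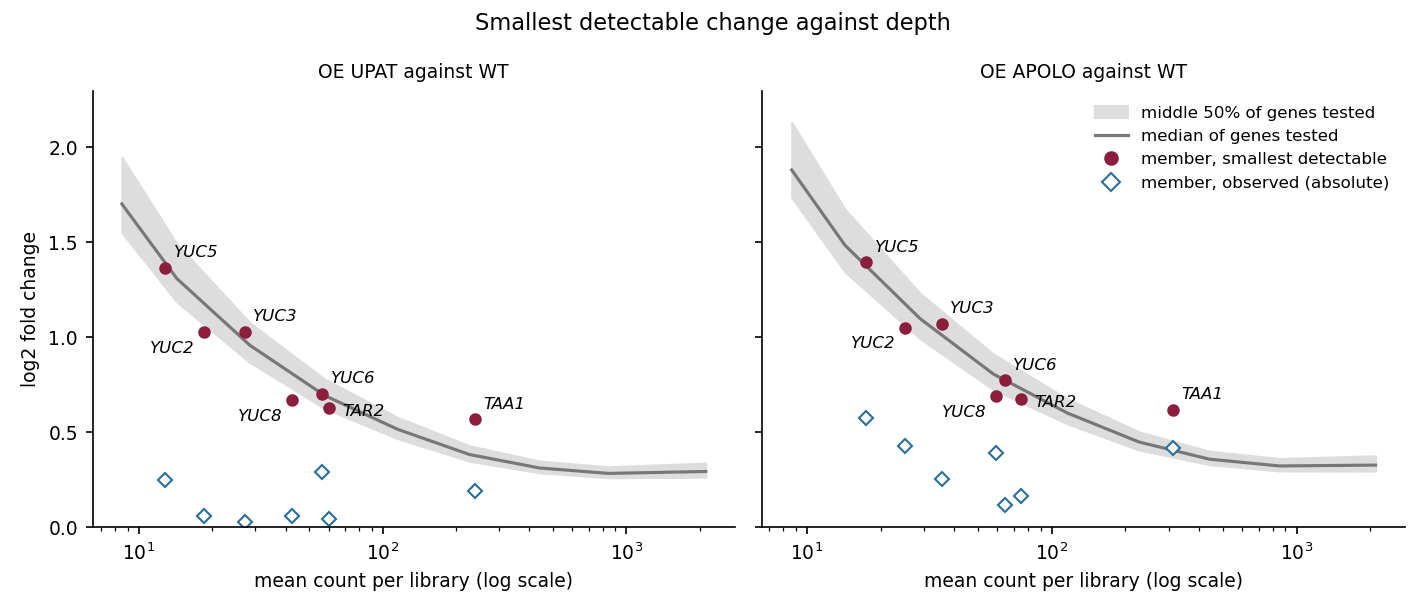
Smallest log2 fold change that would have been called (filled points) and absolute log2 fold change observed (open diamonds) for each TAA and YUC gene, against its mean count per library on a log scale. Grey lines and bands are the median and the interquartile range of the smallest detectable change over all genes tested, in bins of mean count, for OE UPAT against WT and OE APOLO against WT. All observed values lie below the detectable ones; TAA1 lies above the band of genes of its depth.

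Most other genes of both families were rarer still. TAR1, YUC1, YUC4, YUC7, YUC9, YUC10 and YUC11 did not pass the filter, and YUC10 and YUC11, which are genes of seed development, had 0 counts in all 9 libraries. YUC4, which acts with YUC1 in young organs and flowers, had 5, 2 and 5 counts in OE UPAT A, B and C, 2, 1 and 2 in OE APOLO A, B and C, and 8, 5 and 7 in WT A, B and C. All 3 libraries labelled OE APOLO were thus below all 3 of WT, as was the case for 15.1% of all genes tested. Pooled, the 5 counts in the libraries labelled OE APOLO against 20 in WT give a ratio of 0.268, with an exact 95% interval of 0.0787 to 0.737 (two-sided exact binomial test on the pooled reads, p = 0.00463). This covers counting error between those libraries only, and the p-value was not corrected for the other family genes compared in the same way. In an edgeR fit with no filter on low counts, YUC4 had an FDR of 0.0984, and an exact permutation test of 3 libraries against 3 cannot go below p = 0.1. For OE UPAT against WT the pooled YUC4 counts were 12 against 20, a ratio of 0.955 with an interval of 0.425 to 2.05. Pooled YUC1 counts were 5 in OE UPAT and 6 in the libraries labelled OE APOLO, against 12 in WT, where 8 came from WT C. YUC9 had 12, 14 and 10 pooled counts in the same order, with ratios to WT of 1.91 (0.756 to 4.93) in OE UPAT and 1.5 (0.621 to 3.78) in the libraries labelled OE APOLO. YUC7 had 4 or fewer counts in each library, and TAR1 at most 0.25. Of the whole family list, AT1G34040 and AT1G34060, annotated as relatives of these aminotransferases, were tested and neither was called: 0 of 2 in each comparison with WT, by edgeR and DESeq2, with 1 at an unadjusted p under 0.05 in the libraries labelled OE APOLO (26.4% of all genes tested; AT1G34040, 5.28 ± 1.13 CPM in the libraries labelled OE APOLO against 3.84 ± 0.48 in WT, SD, n = 3) and 0 in OE UPAT (41.5% of all genes tested). Per kb of exon, AT1G34040 averaged 2.61 CPM in OE UPAT, 2.9 CPM in the libraries labelled OE APOLO and 2.11 CPM in WT, near the level of TAR2.

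Upstream of TAA1, some of the genes that make tryptophan were higher in OE UPAT. Of 11 such genes, 5 rose, 0 fell and 6 were not called in OE UPAT compared with WT by the quasi-likelihood test of edgeR, where 10.1% of all genes tested rose and 9.72% fell, with a median log2 fold change of 0.30 over the 11, against -0.01 for all genes. TSA1, the alpha subunit of tryptophan synthase, had 34.7 ± 3.72 CPM in OE UPAT and 20.9 ± 2.11 CPM in WT (SD, n = 3), a log2 fold change of 0.73 (FDR 5.44e-05). TRP1, which couples anthranilate to phosphoribosyl pyrophosphate, had 25.5 ± 3.21 CPM in OE UPAT and 16.9 ± 1.36 CPM in WT (0.59, FDR 0.000759). ASB1 and ASA1, the subunits of anthranilate synthase at the head of the pathway, rose by 0.57 (FDR 0.00111) and 0.42 (FDR 0.00268) on the log2 scale, and TSB1, a beta subunit of tryptophan synthase, by 0.30 (FDR 0.00665). For each of these 5 genes, all 3 OE UPAT libraries lay above all 3 of WT, as did those of 23.1% of genes tested. Some reads of ASB1 and ASA1 were divided with other features. The call of ASA1 was lost without WT B or OE UPAT C (FDR 0.017 and 0.02), and that of TSB1 without WT A, WT B, OE UPAT B or OE UPAT C (FDR 0.0134 to 0.0522). In the libraries labelled OE APOLO, 0 of the 11 genes were called against WT by edgeR or DESeq2, 1 had an unadjusted p under 0.05 in edgeR, and the median was 0.08. Of all genes tested, 6.54% were called there and 26.4% had such a p. Of the green shoot markers, 4 of 7 rose in OE UPAT, all of them genes of the small subunit of Rubisco, near-identical copies that shared reads, by 0.57 to 0.81 on the log2 scale, where 10.1% of all genes tested rose. The other 3, genes of the chlorophyll-binding proteins of the light-harvesting antenna, were not called and had values of -0.27 (CAB2), -0.12 (CAB1) and -0.10 (LHCB2.1). In turn 0 of 7 green shoot markers were called in the libraries labelled OE APOLO (2 at an unadjusted p under 0.05, 0 by DESeq2). The part of shoot tissue in the rise of the tryptophan genes was not tested.

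Of the transcription factors known to act on YUC and TAA genes, PIF4 and PIF5 were lower than WT in OE UPAT and higher than WT in the libraries labelled OE APOLO. PIF4, the main factor of the growth response to warmth and an activator of YUC8, had 71 ± 4.34 CPM in OE UPAT, 135 ± 3.3 CPM in the libraries labelled OE APOLO and 110 ± 2.35 CPM in WT (SD, n = 3). In OE UPAT it fell by 0.63 (log2) against WT (FDR 5.99e-06) and it rose by 0.30 in the libraries labelled OE APOLO (FDR 0.00664). PIF5, its close relative, had 103 ± 3.17 CPM in OE UPAT, 176 ± 8.74 CPM in the libraries labelled OE APOLO and 128 ± 4.43 CPM in WT, with log2 fold changes of -0.31 in OE UPAT (FDR 0.00253) and 0.46 in the libraries labelled OE APOLO (FDR 0.000281), all in edgeR's quasi-likelihood test. The direct comparison of the lines gave -0.92 for PIF4 (FDR 2.25e-07) and -0.77 for PIF5 (FDR 1.26e-06). PIF7, which also acts on YUC8, was not called against WT. It had a log2 fold change of 0.06 in OE UPAT (FDR 0.703) and 0.35 in the libraries labelled OE APOLO (FDR 0.0336). YUC8, by comparison, had a log2 fold change of -0.06 in OE UPAT and 0.39 in the libraries labelled OE APOLO, neither of which was called. Whether YUC8 followed any of these factors was not tested. The rise of PIF4 in the libraries labelled OE APOLO was lost when any 1 WT library, OE APOLO B, OE APOLO C or OE UPAT C was left out (FDR 0.0112 to 0.0325), while its fall in OE UPAT held in all 17 alternatives, and the fall of PIF5 was lost without WT C or OE UPAT C (FDR 0.0193 and 0.0149). SGR5 (also called IDD15) and IDD14, zinc finger factors known to activate YUC5 and TAA1, fell in OE UPAT by 1.07 (FDR 4.22e-05) and 0.46 (FDR 0.00898) on the log2 scale. SGR5 had 7.89 ± 0.588 CPM in OE UPAT, 16.6 ± 2.87 CPM in the libraries labelled OE APOLO and 16.5 ± 1.44 CPM in WT. IDD14 was not called by DESeq2 (FDR 0.0182), nor by edgeR with RLE or upper-quartile scaling factors (FDR 0.0102 and 0.014). It was also not called without any one library of OE UPAT or WT (FDR 0.0207 to 0.0557). IDD16, another gene of this list, went the other way in OE UPAT against WT, by 1.11 on the log2 scale. It was not called (FDR 0.0248 in edgeR's quasi-likelihood test) and had 7 to 9 counts in each WT library. All 3 of its OE UPAT libraries lay above all 3 of WT, as did those of 23.1% of genes tested. In all, 0 of the 7 regulators were called higher and 4 lower in OE UPAT (3 lower in DESeq2), where 10.1% of all genes tested rose and 9.72% fell, with a median of -0.46. In the libraries labelled OE APOLO 2 rose and 0 fell, where 4.27% of all genes tested rose and 2.27% fell, with a median of 0.21.

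The remaining lists held few calls. Among 7 tested genes of other routes to IAA, 1 was called in the libraries labelled OE APOLO, where 6.54% of all genes tested were. NIT1, a nitrilase that can release IAA from indole-3-acetonitrile, rose in the libraries labelled OE APOLO by 0.36 on the log2 scale (320 ± 19.3 CPM in the libraries labelled OE APOLO and 250 ± 14.4 CPM in WT, SD, n = 3; FDR 0.00717 in edgeR's quasi-likelihood test). That call was lost when any 1 WT library, OE APOLO B, OE APOLO C or OE UPAT B was left out (FDR 0.0111 to 0.0356), and part of the reads of NIT1 were divided with other features. In OE UPAT 0 of these 7 genes were called by edgeR or DESeq2, and 4 had an unadjusted p under 0.05 in edgeR, where 19.8% of all genes tested were called and 41.5% had such a p. Among 8 tested genes of IAA removal and release, AT1G14120, annotated as an oxygenase that uses 2-oxoglutarate and iron, was the only call in either comparison with WT, so that 1 of 8 was called in each, where 19.8% of all genes tested were called in OE UPAT and 6.54% in the libraries labelled OE APOLO. It had 2.63 ± 0.488 CPM in OE UPAT, 9.26 ± 1.26 CPM in the libraries labelled OE APOLO and 5.47 ± 0.719 CPM in WT, a log2 fold change of -1.04 in OE UPAT (FDR 0.000971) and 0.75 in the libraries labelled OE APOLO (FDR 0.00489). The first held in all 17 alternatives, and the second was lost when any 1 WT library, OE APOLO B or OE APOLO C was left out (FDR 0.0104 to 0.0299). Some of its reads were divided with another feature, which makes its level uncertain. The medians of these lists lay near 0 in both comparisons, at 0.11 and 0.01 for other routes and at 0.00 and 0.04 for removal and release, the first value of each pair being that of OE UPAT against WT and the second that of the libraries labelled OE APOLO against WT. VAS1, the aminotransferase that turns indole-3-pyruvate back into tryptophan, was not called (0.29 in OE UPAT with an FDR of 0.0205 in edgeR, and 0.11 in the libraries labelled OE APOLO with an FDR of 0.491).

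**Figure D4:**
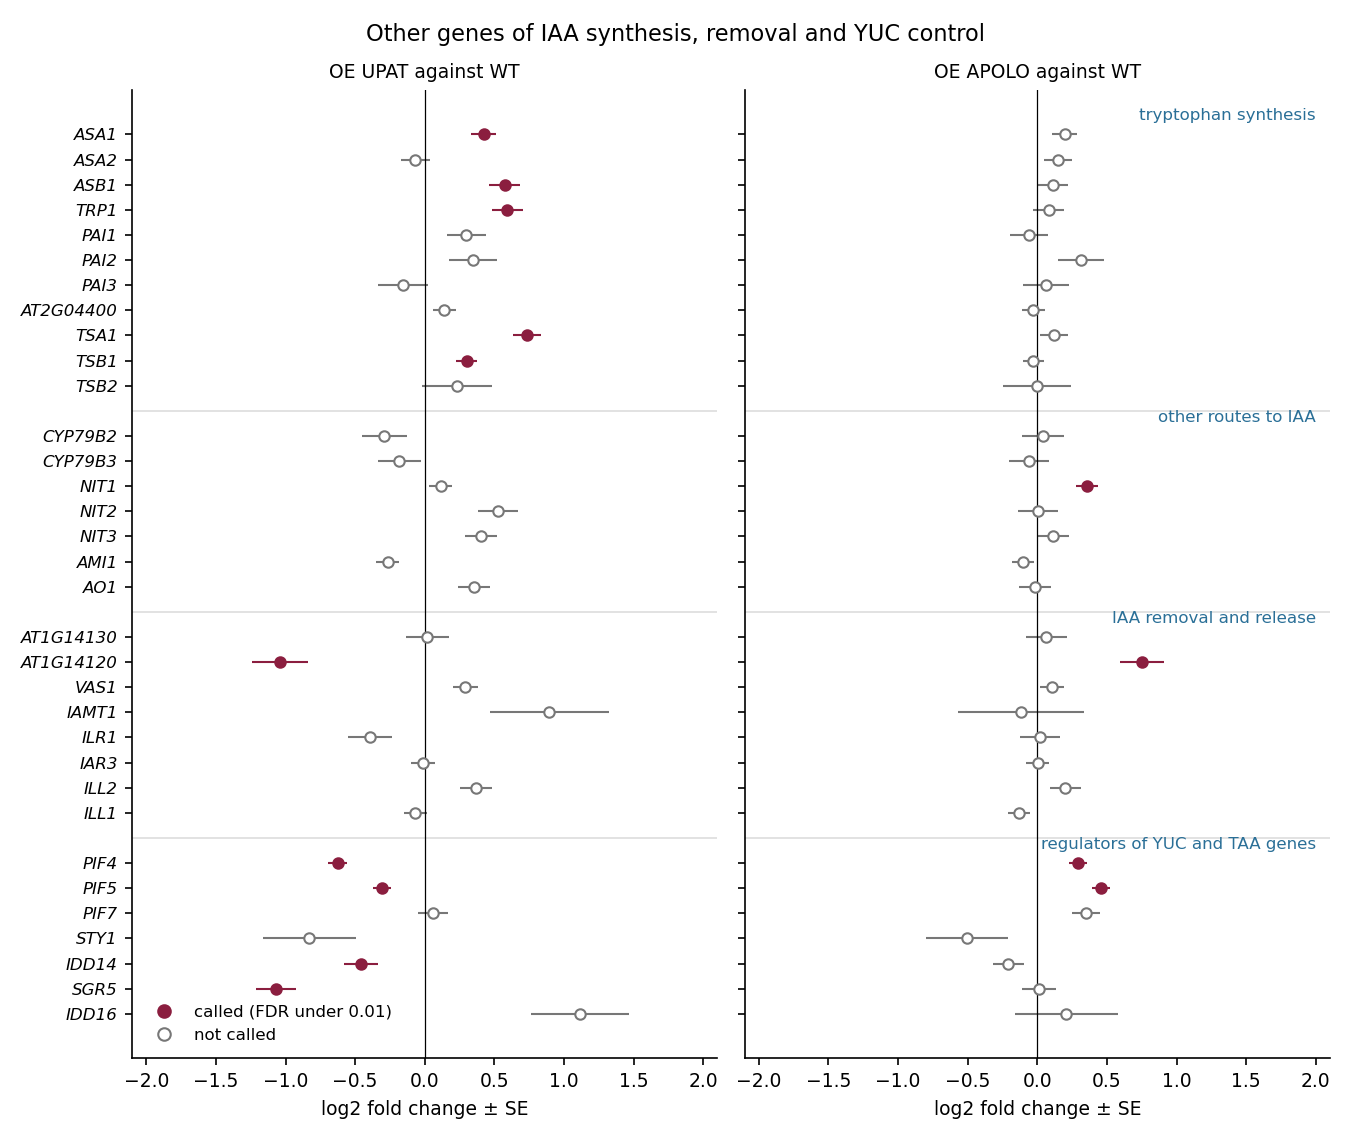
Log2 fold change ± SE of the tested genes of tryptophan synthesis, other routes to IAA, IAA removal and release, and regulators of YUC and TAA genes, in OE UPAT against WT (left) and OE APOLO against WT (right). Filled points had an FDR under 0.01: 5 of 11 tryptophan genes on the left and 0 on the right, and PIF4 and PIF5 on opposite sides of 0 in the 2 panels.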

How the data were processed

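Strand-specific mRNA libraries were sequenced as single-end reads. According to the study's methods and the submitters' processing notes, reads were trimmed with Trimmomatic 0.36, freed of ribosomal sequence with SortMeRNA, aligned with STAR 2.5.2b to TAIR10 and counted over Araport11 exons with featureCounts of Subread 1.6.5. The values the authors deposited are estimated counts per feature, not scaled for depth, with some fractions; how shared reads and the strand were treated in counting is not stated.

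The 31189 transposable element rows (0.233% to 0.272% of a library) were left out. Counts were rounded, filtered with filterByExpr and scaled with TMM factors, and the 9 libraries were fitted together with glmQLFit and glmQLFTest of edgeR 4.0.16 (under R 4.3.3), and genes were called at a Benjamini-Hochberg FDR under 0.01 over all 20021 genes tested. The standard error is the absolute log2 fold change over the square root of F. Ratios of pooled counts have exact binomial 95% intervals; floors and intervals cover counting error only. DESeq2 1.42.0 was an alternative. Other alternatives were RLE and upper-quartile factors, no filter or 10 counts in every library, only the groups compared, a replicate block, unrounded counts, other thresholds and leaving out each library. The methods call the replicates independent; no pair within a group agreed within sampling noise (chi-square per gene 1.62 to 5.93). The self-test was run on simulated data.

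Exonic lengths, symbols and sequences came from RefSeq's TAIR10.1, in which 37898 of the 38194 genes were found. The members and lists were chosen with earlier results of these data known. From the lists, the text names genes called against WT, at most 4 per list and comparison by p-value. ASA1 and TSB1 within a group of 5 calls, IDD16, PIF7, VAS1, and the family genes that were not called were named after their values were seen.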

Additional observations from a re-analysis of the deposited data

Results flagged for a closer look

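Of the genes called against WT in the lists of tryptophan synthesis, other routes, removal and release, and regulators, 8 also differed between the lines. They had been picked by calls in the same libraries, so that their number cannot be set against that of the TAA and YUC genes. The direct edgeR quasi-likelihood test of OE UPAT against the libraries labelled OE APOLO (FDR under 0.01) called 17.8% of all genes tested. It called 4 of 11 tested tryptophan genes, 0 of 7 of other routes, 1 of 8 of removal and release, 3 of 7 regulators and 0 of 7 TAA and YUC genes. The log2 fold changes of this comparison were -0.92 for PIF4, -0.77 for PIF5, -1.08 for SGR5 and -1.80 for AT1G14120, all lower in OE UPAT. They were 0.46 for ASB1, 0.51 for TRP1, 0.61 for TSA1 and 0.33 for TSB1, all higher in OE UPAT. PIF4, PIF5 and AT1G14120 were also called against WT in both lines, with opposite signs. Of the tryptophan genes, the difference between lines was lost for ASB1 with DESeq2 (FDR 0.0214), with only both lines in the fit (FDR 0.0123), or without OE APOLO A or C or any OE UPAT library (FDR 0.016 to 0.0236). It was lost for TRP1 without OE APOLO C or OE UPAT C (FDR 0.0126 and 0.0188), and for TSB1 without OE APOLO A, OE APOLO B, OE UPAT B or OE UPAT C (FDR 0.0101 to 0.0286). The other 5 held in all 17 alternatives.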

How the results depend on the processing

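The count of members called was 0 in all 3 comparisons under every alternative, replicate block included (0 of 7), with 1 exception: leaving out single libraries gave 0 to 1 in the libraries labelled OE APOLO against WT, where TAA1 passed without OE APOLO A. With at least 10 counts in every library, YUC2 and YUC5 were not tested. Of 351 alternative values of the members' fold changes, 350 kept their side of the threshold, and 348 also kept their sign or moved by less than 1 standard error in changing it. The sign was the other one in 11 of the 351, none of them a called value or in the libraries labelled OE APOLO against WT; YUC3 in OE UPAT against WT moved to 0.32 without WT B, and YUC6 in OE UPAT against the libraries labelled OE APOLO to -0.02 without OE UPAT B. The calls of all genes moved by more than 1.5 times in the libraries labelled OE APOLO against WT, from 1309 to 639 without WT A, 731 without WT C, 865 without OE APOLO B, 2658 at an FDR under 0.05 and 252 where a log2 fold change of 1 or more in size was also required. For OE UPAT against WT they moved from 3971 to 6306 and 729 at these thresholds, and for OE UPAT against the libraries labelled OE APOLO from 3573 to 5922 and 752, and to 2209 without OE UPAT C. The causes were not tested. The smallest detectable change of YUC2 in the libraries labelled OE APOLO against WT ran from 2.02-fold to 2.59-fold over the alternatives, and that of YUC5 from 2.4-fold to 3.52-fold.

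No pairing of the samples by the letters A, B and C was seen. The correlation of same-lettered libraries' deviations from their group means ran from -0.279 to 0.196 and was over 0.1 in 3 of 9 pairs. For libraries with different letters it ran from -0.267 to 0.35 and was over 0.1 in 4 of 18 pairs. With 3 libraries in each group, these correlations cannot settle whether the samples were paired. With the replicate block 1256, 3891 and 3384 genes were called, and TAA1 had an FDR of 0.0165 in the libraries labelled OE APOLO against WT. The block took the calls of PIF4 (FDR 0.0116) and NIT1 (FDR 0.012) in that comparison.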
